A study of Mus musculus with 12 samples.

Results

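The genes described here are 9 genes of the Sonic hedgehog pathway, Shh, Ptch1, Smo, Gli1, Gli2, Gli3, Sufu, Hhip and Boc. They were chosen by name for their place in the pathway, and all 9 are among the 38720 genes listed in each deposited table. RNA was sequenced from retinas of C57/BL6 mouse pups on the day of birth (P0), with 3 libraries for each of 4 groups: retinal ganglion cells (RGCs) and the remaining retinal cells (non-RGCs) of wild type (WT) pups, and the same fractions of Math5-Cre;Ezh2 flox/flox pups (mKO), in which the Ezh2 exons for the catalytic SET domain are flanked by loxP sites. Ezh2 is the histone methyltransferase that places the repressive mark H3K27me3, and Cre is knocked in at Math5 (Atoh7), a gene of RGC precursors, so that the mKO pups differ from WT in Cre and in the Math5 allele as well as in Ezh2, and these cannot be told apart here. The labels call the controls WT, whereas the study's text also speaks of littermates and takes floxed littermates without Cre as its default control, so that whether these controls carry the floxed allele is not settled; WT is used here as in the labels. Cre from this locus acts in only a part of the RGCs and in few other retinal cells, so that each mKO fraction mixes cells with and without the deletion. RGCs were pulled out of papain-dissociated retina with magnetic beads against Thy-1 (CD90), which RGCs carry on their surface, and the cells left behind are the non-RGCs.

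Hedgehog ligands are secreted proteins that tell progenitors how to divide and what to become. In the absence of ligand the receptor Ptch1 holds the membrane protein Smo inactive, and Sufu together with the cilium and protein kinase A keeps the Gli transcription factors off or in a repressor form. Once Shh binds Ptch1, helped by co-receptors such as Boc, Cdon and Gas1, Smo is released and Gli2 and Gli3 turn on target genes, among which are Gli1, Ptch1 and the decoy receptor Hhip. In the developing retina RGCs are the known source of Shh, and the progenitors beneath them respond to it.

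On GRCm38, the build that mm10 names, Shh (ENSMUSG00000002633) lies on chromosome 5 from 28456815 to 28467256, Ptch1 (ENSMUSG00000021466) on chromosome 13 from 63508328 to 63573598, Hhip (ENSMUSG00000064325) on chromosome 8 from 79965851 to 80058006 and Boc (ENSMUSG00000022687) on chromosome 16 from 44485049 to 44558897. Smo (ENSMUSG00000001761) lies on chromosome 6 from 29735503 to 29761365 and Sufu (ENSMUSG00000025231) on chromosome 19 from 46396896 to 46488804. The 3 Gli genes lie apart from each other, Gli1 (ENSMUSG00000025407) on chromosome 10 from 127329882 to 127341974, Gli2 (ENSMUSG00000048402) on chromosome 1 from 118834132 to 119053619 and Gli3 (ENSMUSG00000021318) on chromosome 13 from 15463235 to 15730026. Their exons span a wide range of GC content, from 41.5% in Hhip, below which lie 6.7% of the 12665 genes compared, to 58.2% in Gli2, below which lie 90.3%; this range is used below.

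Gli proteins bind DNA through a site whose letters are GACCACCCA, with the shorter core ACCACCC. The 250 bases before the start of 6 members (Gli2, Gli3, Hhip, Ptch1, Smo and Sufu) could be read from RefSeq on GRCm38.p6 and were searched on both strands, the core being part of the longer site. The longer site was in none of the 6 windows and in 0.225% of 32851 promoter windows of that length; the core was in 1 of the 6, that of Gli2, and in 3.92% of all windows. The windows of Ptch1 and Hhip are shown as those of known targets of the pathway, and that of Gli2 as the one with a core match, with the match of Gli2, on the other strand and beginning 205 bases before the start, in capitals. A match here is a run of letters and no evidence of binding, and a window without one says nothing of sites elsewhere.
Ptch1, chr13:63565736-63565985, minus strand, within the annotated gene and outside its exons: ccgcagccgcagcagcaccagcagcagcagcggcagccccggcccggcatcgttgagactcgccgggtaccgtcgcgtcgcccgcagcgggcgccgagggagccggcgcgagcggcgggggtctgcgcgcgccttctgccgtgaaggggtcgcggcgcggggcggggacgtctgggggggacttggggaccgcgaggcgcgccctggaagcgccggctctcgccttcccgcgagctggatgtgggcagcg
Hhip, chr8:80058009-80058258, minus strand, upstream of the gene: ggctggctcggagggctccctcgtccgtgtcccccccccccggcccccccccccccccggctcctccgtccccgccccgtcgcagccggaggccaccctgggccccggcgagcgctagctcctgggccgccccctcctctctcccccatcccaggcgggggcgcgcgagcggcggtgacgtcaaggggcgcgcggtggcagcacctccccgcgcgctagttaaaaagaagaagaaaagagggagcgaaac
Gli2, chr1:119053620-119053869, minus strand, upstream of the gene: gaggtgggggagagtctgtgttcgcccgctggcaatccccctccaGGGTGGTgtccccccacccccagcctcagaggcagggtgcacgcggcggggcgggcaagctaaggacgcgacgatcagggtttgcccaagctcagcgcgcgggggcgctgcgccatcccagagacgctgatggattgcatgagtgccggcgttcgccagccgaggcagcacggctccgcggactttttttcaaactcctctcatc
The 6 windows differ in CpG content. The GC content was 78.4% for Ptch1, 76% for Hhip and 67.2% for Gli2, against a median of 52.4% over all windows, and the ratio of observed to expected CpG was 1.08, 0.8 and 0.78, against a median of 0.37. Gli3 was as high (72.8% and 1.13), while Smo (68.4% and 0.54) and Sufu (54% and 0.44) had CpG ratios nearer the median.

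The libraries held 7139633 to 13014004 reads on genes, the shallowest being an mKO non-RGC library. Libraries are lettered A to C within a group from the deepest to the shallowest, since the deposited means carry no replicate number, and normalised reads are reads divided by a size factor common to all 12 libraries. Ezh2 itself had 1167, 1191 and 1577 normalised reads in WT RGCs and 1336 to 1443 in mKO RGCs, so that the mKO RGC libraries lay within the range of WT (log2 fold change 0.09, adjusted p = 0.637 with limma; 0.13, adjusted p = 0.584 in non-RGCs). The reads cover the whole gene, of which the deletion takes only a part, so this does not check the deletion, and exons were not analysed here. The study's text describes reduced Ezh2 in mKO RGCs by qPCR and Western blot, and less of its histone mark in the ganglion cell layer. It also gives a change in the Ezh2 level by RNA-seq, which the whole-gene reads here do not show. RGC markers separated the fractions, all 12 of the list being higher in RGCs than in non-RGCs in both genotypes, but the separation was not complete: the summed level of 12 retinal progenitor markers was 16213 to 26562 in RGC libraries against 23760 to 37549 in non-RGC libraries. The WT RGC library C stands apart from A and B, with all 12 progenitor markers higher in it (median ratio 1.6) and 10 of 12 RGC markers lower (median ratio 0.89), and its Atoh7 was 275 against 79.5 and 83.6. Other RGC libraries stood apart in other markers. Rgs5, of the endothelial and pericyte list, was 839 in WT library B against 289 in A and 126 in C. In mKO library A it was 641 against 103 in B and 188 in C. Gfap, of the astrocyte list, was 689 in mKO library A against 34.2 in B and 57.4 in C. In pooled cells, fewer cells of a type and less RNA per cell cannot be told apart.

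Shh was the one gene of the 9 that was higher in RGCs than in non-RGCs. In WT RGCs it had 426, 395 and 261 normalised reads in libraries A, B and C, and in WT non-RGCs 18.3, 12.8 and 7.54, which are 20, 13 and 7 reads as counted. In mKO mice the RGC libraries had 439, 412 and 427, and the non-RGC libraries 21.7, 35.5 and 43.3 (27, 36 and 30 reads). Every RGC library lay far above every non-RGC library, and even the lowest RGC value, in the WT library with the most progenitor marker reads, was over the highest non-RGC value. RGCs exceeded non-RGCs 26.9-fold in WT (95% interval 16.8 to 43.3, adjusted p = 1.06e-07) and 12.8-fold in mKO (7.99 to 20.6, adjusted p = 1.11e-06).

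The other 8 genes, which receive, relay or answer the signal, pointed the other way. In WT, 7 of the 9 members were lower in RGCs than in non-RGCs (Ptch1, Hhip, Smo, Sufu, Gli1, Gli2 and Gli3), 1 was higher and Boc was not called, where 22.6% of 16502 genes were called lower and 26.4% higher. In mKO, 6 were lower, 1 was higher, and Ptch1 and Boc were not called, against 25.4% and 29.1% of all genes. The median over the members was a log2 fold change of -1.03 in WT and -0.85 in mKO, against -0.03 and -0.02 over all genes. RGC and non-RGC libraries may come from the same retinas, which could not be modelled, and the progenitor markers moved the same way as these genes: 10 of 12 were called lower in RGCs in each genotype, with a median log2 fold change of -0.84 in WT and -0.91 in mKO.

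**Figure D1:**
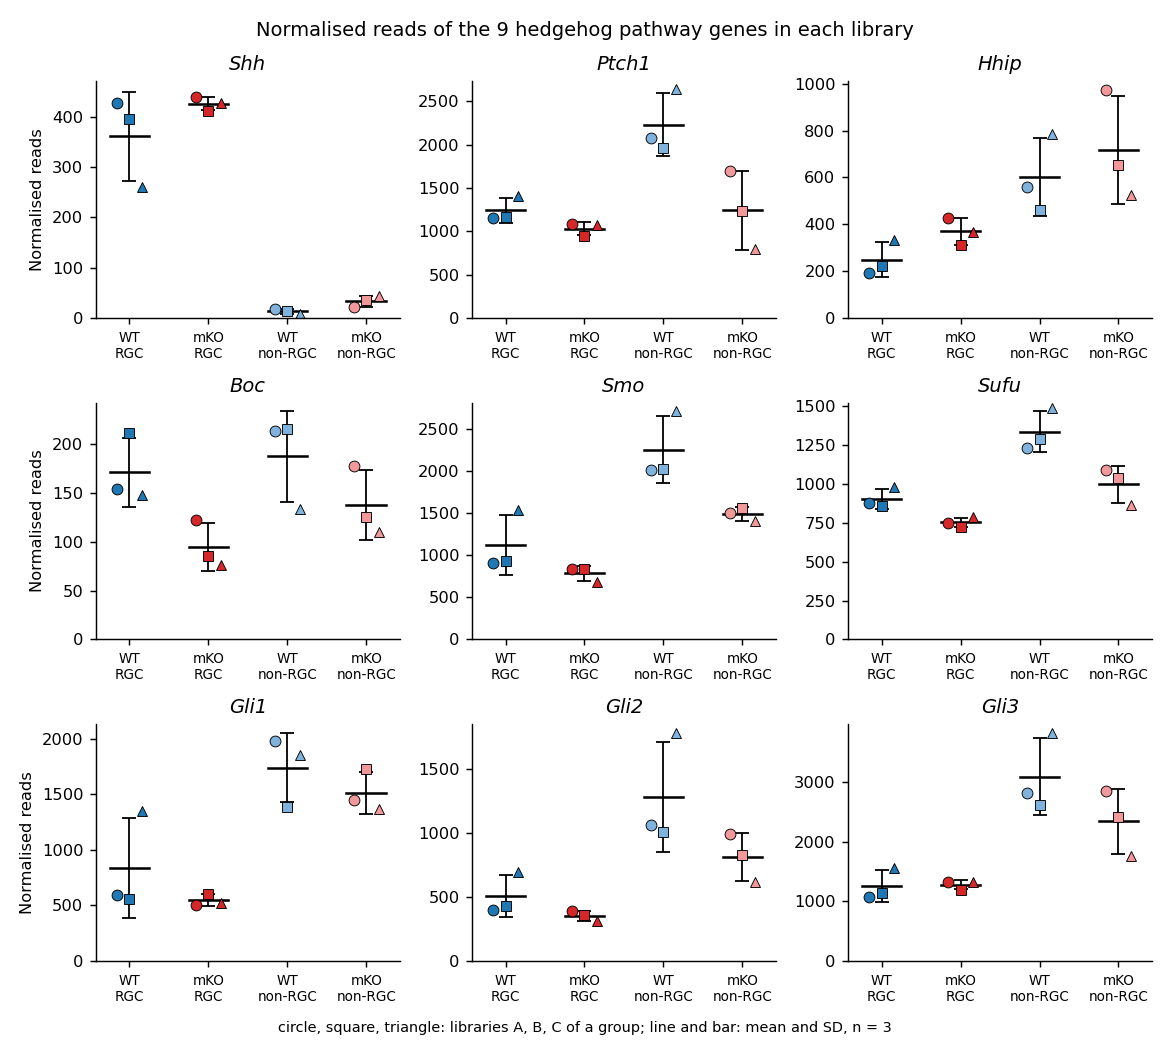
Normalised reads (reads divided by size factors over 12 libraries) of each hedgehog gene, 1 panel a gene with its own axis from 0, for the 3 libraries of each genotype and fraction; lines and bars are the mean and SD. Shh is high in RGC libraries (261 to 439) and low in non-RGC libraries (7.54 to 43.3), and the other genes except Boc are mostly higher in non-RGC libraries; circles, squares and triangles are libraries A, B and C.

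Ptch1, the receptor that is also a target of the pathway, had 1152, 1170 and 1411 normalised reads in WT RGCs and 2076, 1965 and 2641 in WT non-RGCs, which do not overlap. RGCs were 1.78-fold lower (log2 fold change -0.83, SE 0.21, adjusted p = 0.00558). In mKO the RGC libraries had 1079, 947 and 1068 and the non-RGC libraries 1696, 1233 and 791, the last being the shallowest library and below all 3 RGC libraries. The mKO fractions therefore overlapped for Ptch1, with a log2 fold change of -0.20 (95% interval -0.66 to 0.26, adjusted p = 0.443); without mKO non-RGC library C it was -0.49 (adjusted p = 0.025), and without library A it was 0.06.

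Hhip binds hedgehog ligands at the cell surface and keeps them from the receptor. It had 191, 221 and 333 normalised reads in WT RGCs, 560, 460 and 786 in WT non-RGCs, 427, 312 and 368 in mKO RGCs and 971, 654 and 524 in mKO non-RGCs. The fractions did not overlap within a genotype, and RGCs were 2.43-fold lower in WT (adjusted p = 0.00122) and 1.89-fold lower in mKO (adjusted p = 0.00944). Boc, a co-receptor that also serves Shh in axon guidance, was the exception among the receiving genes. It had 154, 212 and 148 in WT RGCs and 214, 216 and 134 in WT non-RGCs, so that the fractions overlapped, with a log2 fold change of -0.12 (95% interval -0.68 to 0.45, adjusted p = 0.738). In mKO it had 122, 85.6 and 76.6 against 178, 125 and 110, again overlapping (log2 fold change -0.53, -1.09 to 0.03, adjusted p = 0.0994).

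Smo, which carries the signal across the membrane, had 906.5, 926 and 1536 normalised reads in WT RGCs and 2015, 2024 and 2709 in WT non-RGCs, 2.05-fold lower in RGCs (adjusted p = 0.000475). In mKO it had 840, 834 and 678 against 1498, 1563 and 1404, a 1.90-fold difference (adjusted p = 0.000969). Neither genotype's fractions overlapped. Sufu, the inhibitor that binds Gli proteins, differed less: it had 880, 857 and 978 in WT RGCs against 1232, 1290 and 1486, and 751, 725 and 785 in mKO RGCs against 1091, 1040 and 862. RGCs were 1.47-fold lower in WT (adjusted p = 0.000984) and 1.32-fold lower in mKO (adjusted p = 0.00852).

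Gli1, the transcriptional activator whose own level is a common readout of hedgehog signalling, had 590, 555 and 1350 normalised reads in WT RGCs and 1975, 1388 and 1849 in WT non-RGCs. The RGC values of libraries A and B are close to each other and library C is 2.36 times their mean, only just under the lowest non-RGC library. RGCs were 2.25-fold lower in WT (log2 fold change -1.17, SE 0.27, adjusted p = 0.00258), and without library C the log2 fold change was -1.58 (adjusted p = 5.15e-06). In mKO Gli1 had 504, 605 and 524 against 1448, 1723 and 1364, a clear gap of 2.77-fold (adjusted p = 0.000505).

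Gli2, the main activator of the response, had 398, 430 and 694 normalised reads in WT RGCs against 1058, 1003 and 1775 in non-RGCs, 2.51-fold lower (adjusted p = 0.00069). In mKO it had 390, 355 and 311 against 988, 830.5 and 618, 2.27-fold lower (adjusted p = 0.00148). Gli3, which acts largely as a repressor when the pathway is off, had 1070, 1137 and 1564 against 2819, 2628 and 3837 in WT, 2.46-fold lower (adjusted p = 0.000101). In mKO it had 1326, 1192 and 1322 against 2851, 2426 and 1757, 1.80-fold lower (adjusted p = 0.00224). For all 3 Gli genes each RGC library lay under each non-RGC library of its genotype.

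**Figure D2:**
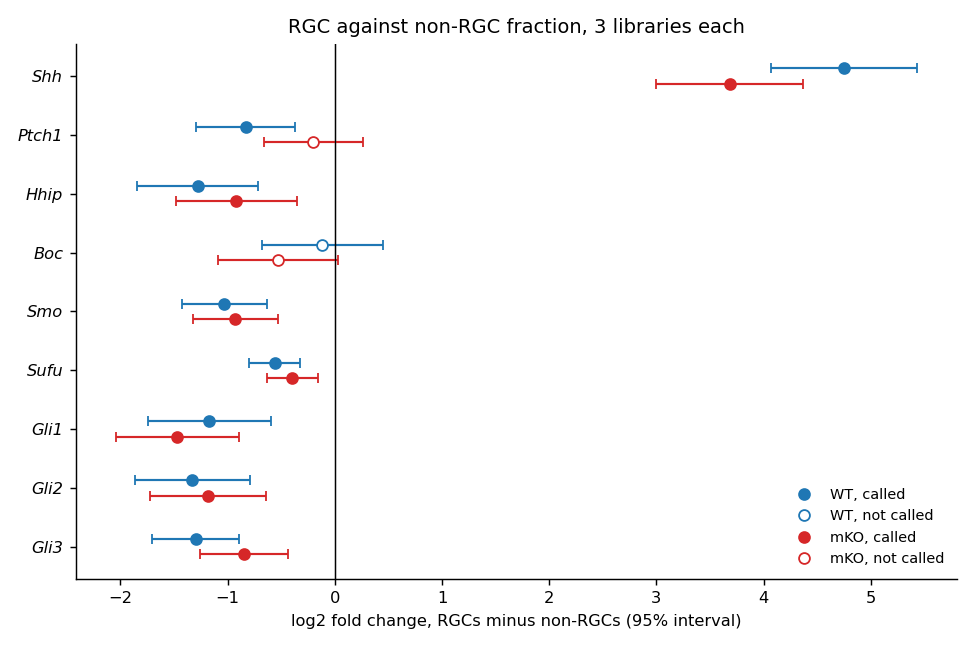
log2 fold change of each member, RGCs minus non-RGCs, in WT and mKO mice (points: limma estimate from 3 libraries a group, filled where the adjusted p is under 0.05; bars: 95% interval). Shh lies at 4.75 in WT and 3.68 in mKO, and the others lie between -1.47 and -0.12, with Boc open in both genotypes and Ptch1 open in mKO.

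Per length, the order of the genes also differed between fractions. In WT non-RGCs, in reads per kilobase of exon scaled to a common library total (RPKM, mean ± SD of 3 libraries), Smo stood at 34.8 ± 4.74, Gli1 at 30.4 ± 5.49 and Gli3 at 28.1 ± 4.79, whose ranges overlap in turn. Gli2 (16.1 ± 4.76), Sufu (15.2 ± 0.898) and Ptch1 (13.7 ± 1.7) formed the next group, also overlapping, and then came Hhip (5.77 ± 1.38), Boc (3.71 ± 1.04) and Shh (0.4 ± 0.178), each apart from its neighbours. In WT RGCs, Shh at 10.4 ± 2.25 moved from the last place to the middle, and Smo (16.6 ± 5.97), Gli1 (13.9 ± 8.08), Gli3 (10.9 ± 2.74) and Sufu (9.73 ± 1.07) overlapped with their neighbours in the order. Ptch1 (7.26 ± 1.12), Gli2 (6.14 ± 2.22), Boc (3.17 ± 0.56) and Hhip (2.27 ± 0.776) followed. Exon lengths are over all annotated transcripts together, 14185 bases for Ptch1, so that a gene which uses few of its exons is understated.

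Shh was also set against the RGC markers within each library. Per 1000 summed normalised reads of the 12 RGC markers, Shh had 12.8, 11.4 and 8.57 in WT RGC libraries A to C and 19, 17.3 and 18 in mKO RGC libraries. All 3 mKO ratios exceeded the WT ratios. The marker sum was 23068 to 23852 in mKO and 30440 to 34581 in WT. Shh itself overlapped between the genotypes, at 412 to 439 in mKO and 261 to 426 in WT. The higher ratio goes with the lower marker sum and is not read as more Shh per RGC. In non-RGC libraries the ratio was 3.2, 2.11 and 1.23 in WT and 3.46, 4.8 and 5.16 in mKO. Gli1 per 1000 reads of the progenitor markers was 32.5 and 29.6 in WT RGC libraries A and B, 50.8 in C, 31.1 to 35.4 in mKO RGC libraries, and 45.9 to 68.9 in non-RGC libraries of both genotypes, so that in RGC libraries A and B Gli1 was lower relative to the marker sum. Ptch1, the other target set against this sum, had 63.4, 62.3 and 53.1 per 1000 in WT RGC libraries against 66.8, 65 and 70.3 in WT non-RGC libraries. These WT ranges do not overlap, by a small margin. The sum includes Pax6, which overlapped between the WT fractions (4242 to 4573 normalised reads in RGCs against 4219 to 5543 in non-RGCs). The ratio without Pax6 was not taken, so a lower Ptch1 relative to progenitors is not read from it. In mKO it had 55.4 to 66.6 in RGC libraries against 71.4, 49.3 and 27.6 in non-RGC libraries, and the ranges overlap.

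**Figure D3:**
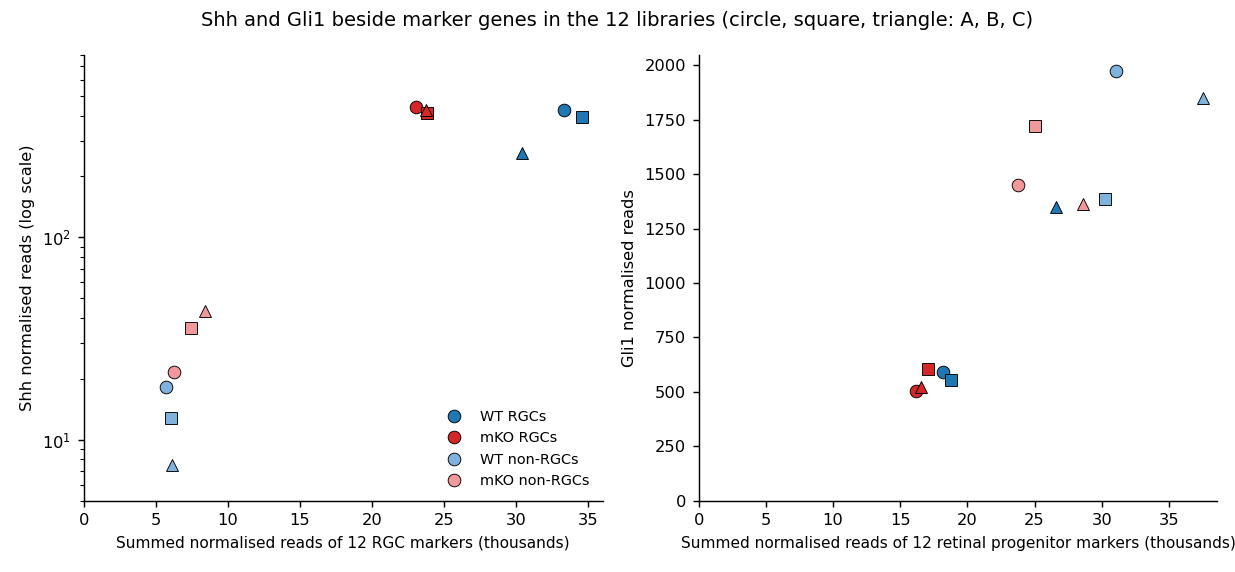
Left, normalised reads of Shh (log scale) against the summed normalised reads of 12 RGC markers; right, normalised reads of Gli1 against the sum of 12 retinal progenitor markers; 1 point a library, 3 a group. The mKO non-RGC libraries have more Shh than the WT non-RGC libraries (21.7 to 43.3 against 7.54 to 18.3) and, in the right panel, WT RGC library C (dark blue triangle) has 1350 Gli1 reads, next to the lowest non-RGC library (1364).

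By a set rule, the genes most like a member across the 12 libraries were taken from 12780 genes with a mean of at least 50, by Pearson's r of log2(normalised reads + 1). For Shh they were Slc17a8 (0.997), a vesicular glutamate transporter, Gm8773 (0.997), Ddx25 (0.996), Tmem141 (0.995) and Cyp2s1 (0.995). Slc17a8, for example, had 49.3 to 114 normalised reads in WT RGCs and 1.08 to 2.74 in WT non-RGCs, and like Shh was lowest in mean in WT non-RGCs and higher in mKO non-RGCs (3.22 to 8.66). For Gli1 they were Cntrob (0.986), Dnaaf3 (0.98), Kifc5b (0.98), Troap (0.977) and Ccnf (0.976). Ccnf, the cyclin F gene, had 280 to 656 in WT RGCs and 761 to 1047 in WT non-RGCs. With 12 libraries in 4 groups these values mostly restate the gap between fractions, and WT RGC library C adds to those of Gli1.

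Whether the genotype changed any member was asked in each fraction on its own. In RGCs, Boc and Sufu were called lower in mKO and none was called higher, that is 2 of 9 against 21.2% of 16085 genes called lower and 16.3% called higher. A count of 2 of 9 lower is thus close to the share over all genes. Scaled by total reads, which moved the median of all genes from -0.0024 to 0.12, the genes called were 3857 higher and 2238 lower in place of 2622 and 3405, and the members called were Hhip, higher (0.71, adjusted p = 0.0497), and Boc, with Sufu no longer called (-0.15, adjusted p = 0.214). Boc fell from 154, 212 and 148 to 122, 85.6 and 76.6 normalised reads, 1.83-fold lower (log2 fold change -0.87, SE 0.22, adjusted p = 0.0189), and Sufu from 880, 857 and 978 to 751, 725 and 785, 1.21-fold lower (-0.27, SE 0.08, adjusted p = 0.0392). Boc was not called without WT library B, its highest library (adjusted p = 0.054 with limma), or without mKO library B or C (0.071 and 0.0703). For both Boc and Sufu the genotypes did not overlap. The same held for 5 members in all, Ptch1, Smo, Gli2, Sufu and Boc, each mKO library being below each WT library, where 28.2% of all genes lay below and 24.8% above in this way.

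The other 7 members were not called in RGCs. Shh, the RGC ligand, had a log2 fold change of 0.26 (95% interval -0.13 to 0.65, adjusted p = 0.257), with the mKO libraries at 412 to 439 and 2 of the 3 WT libraries at 395 and 426, while 10 of 12 RGC markers were called lower in the same comparison. Hhip was at 0.59 (0.04 to 1.13, adjusted p = 0.0861), Gli3 at 0.03 (-0.33 to 0.40, adjusted p = 0.885) and Ptch1 at -0.28 (-0.54 to -0.02, adjusted p = 0.0836). Gli1 (-0.50), Gli2 (-0.50) and Smo (-0.49) had wide intervals that reached from -1.30 to 0.29 for Gli1, and for these genes WT RGC library C was the highest library by far. Without that library Gli1 stood at -0.07 (adjusted p = 0.544), and Hhip (0.84, adjusted p = 0.00152) and Gli3 (0.22, adjusted p = 0.0164) were called higher beside Boc and Sufu, making 4 members called. Calls over all genes rose as well in that setting, to 3730 higher and 4454 lower of 16125, from 2622 and 3405.

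**Figure D4:**
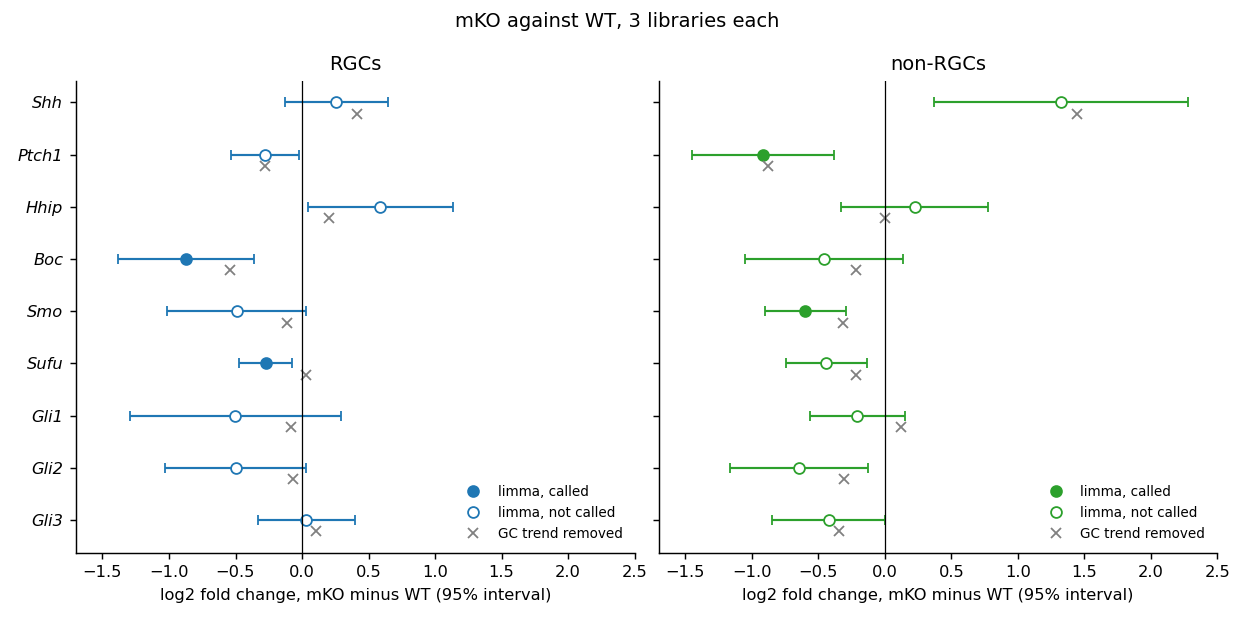
log2 fold change of each member, mKO minus WT, in RGCs (left) and non-RGCs (right); points are limma estimates from 3 libraries a genotype, filled where the adjusted p is under 0.05, bars are 95% intervals and crosses the value once each library's trend with GC content was removed. In RGCs Boc (-0.87) and Sufu (-0.27) are filled, in non-RGCs Ptch1 (-0.91) and Smo (-0.60), and no cross has an adjusted p under 0.05.

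In non-RGCs, where the responding progenitors are, Ptch1 and Smo were called lower in mKO and none was called higher, 2 of 9 against 6.43% of 15326 genes called lower and 4.18% called higher. Scaled by total reads, which moved the median of all genes from -0.026 to 0.15, the genes called were 1351 higher and 454 lower in place of 641 and 985, and no member was called. Ptch1 went from 2076, 1965 and 2641 normalised reads in WT to 1696, 1233 and 791 in mKO, 1.89-fold lower (log2 fold change -0.91, SE 0.24, adjusted p = 0.0399). The mKO libraries were spread more widely than those of WT, and all 3 lay below WT. Smo went from 2015, 2024 and 2709 to 1498, 1563 and 1404, 1.51-fold lower (-0.60, SE 0.14, adjusted p = 0.027). Gli2 and Sufu also had each mKO library below each WT library (4 members in all, against 19.2% of genes below and 17.5% above), with log2 fold changes of -0.64 (adjusted p = 0.1) and -0.44 (adjusted p = 0.0654).

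Gli1, the readout gene, had a log2 fold change of -0.21 in non-RGCs (95% interval -0.56 to 0.15, adjusted p = 0.408), and its genotypes overlapped at 1364 to 1723 in mKO against 1388 to 1975 in WT. Hhip was at 0.22 (-0.33 to 0.78, adjusted p = 0.572), Boc at -0.46 (-1.05 to 0.14, adjusted p = 0.276) and Gli3 at -0.42 (-0.85 to 0.0017, adjusted p = 0.169). The targets of the pathway among the members thus did not share a value: Ptch1 was lower, Gli1 and Hhip were not called. The calls of Ptch1 and Smo were not firm to single libraries, the number of members called running from 0 to 2 with 1 library left out; Ptch1 kept its call only without mKO library A (adjusted p = 0.0148) and otherwise had adjusted p = 0.0561 to 0.121.

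Shh was higher in mKO non-RGCs in each library, at 21.7, 35.5 and 43.3 normalised reads against 18.3, 12.8 and 7.54 in WT, with 7 to 36 reads behind each value. The log2 fold change was 1.32 (95% interval 0.37 to 2.28, adjusted p = 0.0744), not called from the 6 non-RGC libraries, and called in the fit that shared its spread over all 12 libraries (1.34, adjusted p = 0.0108). That fit also called more genes in non-RGCs, 1640 higher and 1958 lower in place of 641 and 985. RGC markers moved with Shh: 8 of 12 were called higher in mKO non-RGCs and none lower, with a median log2 fold change of 0.99, and no marker of the list was at 0. Thy1, the antigen of the sort, had 70 to 95.3 normalised reads in mKO non-RGCs against 1.97 to 9.7 in WT (log2 fold change 3.86, adjusted p = 0.0048), and Pou4f2, a transcription factor of RGCs, 133 to 205 against 36.5 to 74.3 (1.72, adjusted p = 0.0116). The summed RGC markers were 6275 to 8390 in mKO and 5709 to 6129 in WT. The part of RGCs left in the non-RGC fraction in the Shh difference was not tested.

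Markers of some other cell types moved with genotype as well, and their part was likewise not tested. Progenitor markers, the cells in which hedgehog targets are read, were lower in mKO for 5 of 12 genes in RGCs (median log2 fold change -0.46) and for 1 of 12 in non-RGCs (-0.39), with summed levels in non-RGCs of 23760 to 28611 in mKO and 30214 to 37549 in WT. The count of 1 of 12 in non-RGCs is near the 6.43% of all genes called lower there. Called higher were 16.3% of all genes in RGCs and 4.18% in non-RGCs. All 5 blood genes tested, of 6 listed, were higher in mKO in both fractions (summed level in RGCs 276 to 340 against 119 to 128, in non-RGCs 580 to 885 against 131 to 217). Of 6 pigment epithelium genes tested, of 7 listed, 3 were higher in RGCs and 4 in non-RGCs, and Rpe65 was at 3 reads or fewer in all libraries. Against 21.2% of all genes called lower in RGCs and 6.43% in non-RGCs, photoreceptor genes were lower for 4 of 8 in RGCs and 5 of 8 in non-RGCs, amacrine and horizontal cell genes for 4 and 3 of 10, astrocyte genes for 1 of 7 tested in each, and endothelial and pericyte genes for 1 and 0 of 8, the last 2 lists being at or under the share of all genes in RGCs.

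GC content of the transcript moved with genotype across all genes. In RGCs the median log2 fold change fell from 0.37 in the quintile of genes with the lowest GC content to -0.45 in the highest quintile, over 12775 genes, and in non-RGCs from 0.20 to -0.35 over 12212 genes. Each member was set against the median of its own quintile. In RGCs, Smo, Gli1 and Gli2 were in the highest quintile and differed from its median by -0.04, -0.05 and -0.05, Sufu differed from that of its own by -0.04, and Hhip, in the lowest quintile, by 0.22. Boc differed by -0.42, with 4.77% of its quintile lower, and Shh by 0.49, with 95.7% lower.

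In non-RGCs, Ptch1 differed from the median of its quintile by -0.83, with 0.983% of genes lower, and Shh by 1.49, with 99.7% lower. The remaining 7 members differed by -0.34 to 0.15. Once each library's trend with GC content was removed, none of the 9 was called in either fraction; over all genes 720 were then called higher and 1369 lower of 15874 in RGCs, and 130 and 88 of 15138 in non-RGCs, fewer than the calls without this step. The log2 fold changes were then -0.54 for Boc (adjusted p = 0.164) and 0.03 for Sufu in RGCs, and -0.88 for Ptch1 (adjusted p = 0.0827), -0.31 for Smo and 1.45 for Shh (adjusted p = 0.0997) in non-RGCs. The part of GC content in these differences was not tested further.

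**Figure D5:**
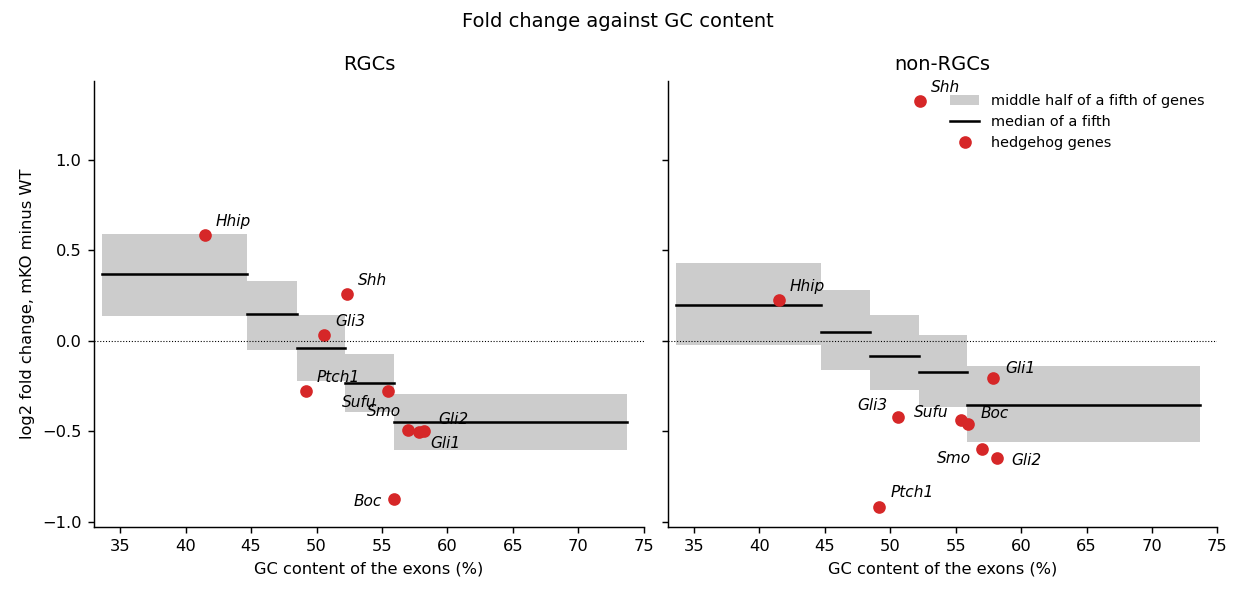
log2 fold change, mKO minus WT, against the GC content of the exons in RGCs (left) and non-RGCs (right); grey boxes and lines give the interquartile range and the median of each quintile of genes by GC content, and red points the 9 members. The medians step down from 0.37 to -0.45 in RGCs, most members lie near the step of their own quintile, and Ptch1 (-0.91) and Shh (1.32) lie farthest from it in non-RGCs.

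Whether the genotype difference differed between the fractions was tested as an interaction. None of the 9 members passed, where 0.097% of 16502 genes (16, all of them lower) did. By limma, 1 member of 9, Shh, was under the unadjusted threshold of 0.05, as were 1499 of the 16502 genes. Its log2 difference between fractions was 3.68 in mKO and 4.75 in WT (interaction -1.07, 95% interval -2.04 to -0.10, adjusted p = 0.536 with limma). RGC markers moved the same way: 5 of 12 were called lower, which are 5 of the 16 genes called, with a median interaction of -1.41, and their part in the value of Shh was not tested. Ptch1 was at 0.63 (-0.02 to 1.28, adjusted p = 0.548), and the others lay between -0.42 and 0.45. The intervals were wide, that of Gli1 reaching from -1.11 to 0.51, so that a p over the threshold does not show that the fractions responded alike.

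The wider pathway was taken as 52 further genes in 4 lists, chosen with earlier results of these data known. Of the 51 tested between fractions in WT, 10 were higher and 15 lower in RGCs, and in mKO 8 were higher and 16 lower, with medians of -0.14 and -0.04, where 26.4% and 22.6% of all genes were called higher and lower in WT and 29.1% and 25.4% in mKO. Of 8 ligand and release genes, 1 was higher in RGCs and 1 lower in each genotype. The higher one was Disp2, a relative of the transporter Disp1 that frees lipid-bound hedgehog. Disp2 had 2705 to 4778 normalised reads in WT RGCs and 253 to 458 in WT non-RGCs, 10.4-fold higher (adjusted p = 3.06e-07). In mKO it was 11.7-fold higher (adjusted p = 2.42e-07). Disp1 itself had 487, 458 and 387 in WT RGCs against 545, 562 and 469 in WT non-RGCs. The other ligands were scarce, Ihh at 4.51 to 24.7 normalised reads and Dhh at 5.48 to 35.5 over all libraries, and were not called in any comparison in which they were tested.

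Receptors and co-receptors were lower in RGCs for 4 of 7 genes in each genotype. Gas1, a co-receptor, had 1467 to 2513 normalised reads in WT RGCs against 2699 to 3331 (log2 fold change -0.69, adjusted p = 0.00421), and Cdon, the relative of Boc, 1670 to 1938 against 2964 to 3051 (-0.75, adjusted p = 8.52e-05). Lrp2 (-1.03) and the glypican Gpc3 (-0.96) were lower in WT RGCs too. The glypican Gpc5, which binds hedgehog at the cell surface, was the 1 higher gene, at 36.2 to 81.4 against 2.96 to 5.48 in WT, 11.8-fold, and at 61.1 to 71.1 against 0 to 7.89 in mKO, 19-fold, both from few reads in non-RGCs.

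Among 27 signal transduction genes, 8 were higher and 5 lower in WT RGCs, and 6 and 5 in mKO, which, counting both directions, is no larger a share than that of all genes in either genotype. Kif7, the ciliary kinesin that scaffolds Gli proteins, was 2.36-fold lower in RGCs than in non-RGCs in WT (adjusted p = 0.000157). Evc, a ciliary partner of Smo, was 2.28-fold lower in RGCs in mKO (adjusted p = 0.000101). Gpr161, a ciliary receptor that raises cAMP and restrains the pathway, was 3.63-fold higher in RGCs than in non-RGCs in mKO (941 to 1004 against 204 to 427, adjusted p = 3.1e-05). The other genotype went the same way for each. Kif7 had 94.7 to 104 normalised reads in mKO RGCs against 198 to 233 in mKO non-RGCs. In WT, RGCs against non-RGCs, Evc had 260 to 421 against 471 to 666 and Gpr161 860 to 1241 against 534 to 656. Of 10 response genes tested, none was higher and 5 in WT and 7 in mKO were lower in RGCs. Foxd1, a forkhead gene of the ventral and temporal retina, was 2.38-fold lower in WT (adjusted p = 0.00549) and 2.20-fold in mKO (adjusted p = 0.00903), and Foxf1 was 2.82-fold lower in mKO, from 2.73 to 20.7 normalised reads a library.

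Between genotypes, 7 of 49 further pathway genes tested were higher and 11 lower in mKO RGCs, and 2 of 50 were higher and 5 lower in mKO non-RGCs, with medians of -0.15 and -0.22. Over all genes 16.3% were higher and 21.2% lower in RGCs and 4.18% and 6.43% in non-RGCs, so that the counts in RGCs are close to the share of all genes, and the genes named next are single genes of a list that does not stand out there. Gas1 was lower in mKO in both fractions (log2 fold change -0.88, adjusted p = 0.0172 in RGCs; -0.77, adjusted p = 0.00846 in non-RGCs), as was Mycn, a proliferation gene that hedgehog turns on in neural progenitors (-0.65, adjusted p = 0.00157, and -0.67, adjusted p = 0.0153). Efcab7, which tethers the Evc proteins at the cilium, was higher in both (0.93, adjusted p = 0.00476, and 1.25, adjusted p = 0.0085). Ccnd1, the cyclin D1 gene, was lower in RGCs (-0.67, adjusted p = 0.0157), and Ift88 of ciliary transport (0.61) and Scube2 of ligand release (0.77) were higher there. In non-RGCs Gpr161 (-1.12, adjusted p = 0.0281), Scube3 (-0.63) and Cdon (-0.57) were lower, and Foxf1 was higher from few reads (1.85, adjusted p = 0.0347).

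With the GC trend removed, Mycn in RGCs (-0.37, adjusted p = 0.0189) and Efcab7 in non-RGCs (1.02, adjusted p = 0.0421) remained called among these named genes, while the others were not called. Of these, Gas1 stood at -0.25 in RGCs and -0.23 in non-RGCs, whereas Gpr161 in non-RGCs was little moved, from -1.12 to -1.03 (adjusted p = 0.0777), and Ccnd1 in RGCs stood at -0.47 (adjusted p = 0.0888). Cdon was not called by genotype in RGCs (-0.11, adjusted p = 0.308).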

How the data were processed

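RNA-seq values of 12 libraries were used (poly-A selected, single-end, all in 1 lane). Per the study's methods and the labels, the authors aligned reads to mm10 with STAR 2.3.1z4, counted them per gene with featureCounts and used DESeq. The deposited signal is, for each genotype, the authors' mean over 3 libraries of reads divided by size factors; other deposited columns hold the authors' own fold changes and p-values and were not used. Each deposited mean averages 3 whole numbers of reads, each divided by the size factor of its own library, and is given with 15 digits. Because the size factors differ between libraries, the reads of each library were recovered from these digits, for 100% of genes with reads.

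Within a fraction, reads divided by the authors' size factors were compared with limma 3.58.1 in R 4.3.3 (mean-variance trend, log2(value + 1), a filter that keeps genes whose mean reaches 10 in one of the groups compared, Benjamini-Hochberg over all genes, called at an adjusted p under 0.05). This scale understates changes of low genes. Comparisons across fractions, and all values shown per library, use size factors recomputed over 12 libraries by median of ratios. On simulated RGC libraries limma recovered 160 of 200 genes changed 1.5-fold, and 198 of 200 changed 2-fold with 14 false calls among 15875 genes. The simulation gave every gene the same small spread and changed only genes with a mean of at least 50. It held no library that stood apart and no trend with GC content, so these counts do not carry over to the real libraries. An exact permutation test of single genes cannot go below 0.1 at this size, so none was run. The libraries come from separate RNA extractions, not stated to be separate animals, so p-values measure the spread between them.

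The annotation was GENCODE M21 (GRCm38), and 35580 of 38720 genes matched by symbol and 1759 by an older symbol; all 9 members had a GC content. Named were all members, Ezh2, at most 6 further pathway genes of largest change per comparison, Ihh, Dhh, Cdon and Gas1, and the 5 genes most like Shh and Gli1; 1 further gene of this rule is not reported here. Members and lists were chosen with earlier results of these data known. Strandedness of the counting is not given in the sources used here. Alternatives were another pseudocount, other filters, scaling, voom, removal of GC and reads-per-base trends (lowess span 0.3), the study's thresholds, a fit on 12 libraries and leaving out each library.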

Additional observations from a re-analysis of the deposited data

How the results depend on the processing

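The fraction comparisons held: 8 members were called in WT with each library left out in turn and 9 once GC and reads-per-base trends were removed, when Boc passed; in mKO 7 to 8 were called. Over all genes in WT, 4360 higher and 3733 lower became 3466 and 6028 with both trends removed. Without WT RGC library A they became 3666 and 2789. In mKO, 4806 and 4193 became 3805 and 6461 with both trends removed, and 4212 and 3184 without mKO RGC library C. The genotype calls did not hold in the same way. In RGCs, 2 members were called, against 1 with no filter on the mean, 1 in the fit on 12 libraries, 0 with the GC trend removed, 0 with both trends removed and 0 to 4 with a library left out (4 without WT library C, 0 without mKO library B or C, 1 without the others). At 2 in number, the members called were Hhip and Boc, in place of Boc and Sufu, when scaled by total reads and at p under 0.05 and 1.5-fold. In non-RGCs, 2 were called, against 0 scaled by total reads, 1 by upper quartile, 0 with the GC trend or both trends removed, 0 to 2 with a library left out (0 without WT or mKO library B, 1 without WT library A or C or mKO library C), 4 in the fit on 12 libraries and 4 at p under 0.05 and 1.5-fold (Gli2, Ptch1, Shh and Smo). For the interaction no member was called, and 1 (Shh) at p under 0.05 and 1.5-fold, where 489 of 16502 genes were higher and 319 lower. Calls over all genes moved in the same settings. In non-RGCs, 641 higher and 985 lower became 166 and 221 without WT library B and 48 and 93 without mKO library B. They became 130 and 88 with the GC trend removed and 1640 and 1958 in the fit on 12 libraries. With both trends removed they were 97 and 82, and scaled by upper quartile 692 and 830. Without WT library A they were 343 and 476, and without WT library C 724 and 890. Without mKO library A they were 286 and 893, and without mKO library C 464 and 1130. At p under 0.05 and 1.5-fold, 1362 of 15326 were higher and 1040 lower. In RGCs, 2622 and 3405 became 720 and 1369 with the GC trend removed and 3730 and 4454 without WT library C. With both trends removed they were 218 and 444, and with no filter 2652 and 3116 of 26516. Without WT library A they were 1978 and 2825, and without WT library B 2097 and 2969. Without mKO library A they were 1513 and 2309, without B 1527 and 2509, and without C 1427 and 2343. In the fit on 12 libraries they became 1673 and 2223, and at p under 0.05 and 1.5-fold 1614 and 1001. The cause was not tested.

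Signs that turned were near 0. With the GC trend removed Sufu in RGCs was 0.032, and in non-RGCs Gli1 was 0.12 and Hhip -0.00108; with both trends removed these 2 were 0.16 and -0.10. With a library left out, Gli3 in RGCs ran from -0.082 to 0.22, Hhip in non-RGCs from -0.011 to 0.43, Boc between fractions in WT from -0.34 to 0.000783, Ptch1 between fractions in mKO from -0.49 to 0.060, and in the interaction Smo from -0.039 to 0.35, Gli1 from -0.53 to 0.11 and Gli2 from -0.12 to 0.39.

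No paired analysis was possible because the deposited means carry no replicate number for a library. Reads recovered here are those the authors counted after removing duplicates. Shh in non-RGCs rests on 7 to 36 reads a library, and other values on few reads are limited likewise.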
